A study of Homo sapiens with 6 samples.

Results

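The genes described here are 33 genes of glycolysis and of the transcriptional response to low oxygen, chosen by name from a list of gene symbols, out of 21463 genes in the deposited tables. All 33 were found, and all 33 passed the filter on low counts that left 13541 genes for testing. The list holds 2 glucose transporters, 3 genes of the hexokinase and phosphoglucose isomerase steps, 5 of the phosphofructokinase step, 9 of lower glycolysis, 5 that handle lactate and pyruvate, and 9 hypoxia-induced genes.

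Polyadenylated RNA was sequenced from sublines resistant to EGFR kinase inhibitors and from the parental non-small cell lung cancer lines they were selected from. Resistant HCC827 and PC9 cells were selected with gefitinib and resistant H1975 cells with osimertinib, both inhibitors of the EGFR kinase, for 90 days at stepwise higher doses; the parental cells of each line were not treated. The EGFR genotype is E19Del, a deletion, in HCC827 and PC9 and L858R/T790M in H1975, in the resistant and the parental cells alike. The labels give a half-maximal inhibitory concentration of 4.288 to 12.485 µM for the resistant cells, against 0.016 to 0.07 µM at the beginning of selection. Each line gave 1 resistant and 1 parental library, 6 in all, and drug, mutation and cell line cannot be told apart between the gefitinib-selected lines and H1975. The labels do not say whether the drug was present at harvest, how many clones a subline holds, or that oxygen or glucose was varied.

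Glycolysis splits glucose into pyruvate in the cytosol, and many carcinoma cells pass much of that pyruvate to lactate even when oxygen is present. When oxygen is scarce, prolyl hydroxylases of the EGLN family stop marking the alpha subunits of hypoxia-inducible factor (HIF) for VHL-dependent destruction, and HIF bound to ARNT then switches on glucose transporters, most glycolytic enzymes, and genes such as VEGFA, CA9, ADM and EGLN3. In EGFR-mutant lung cancer cells, EGFR signalling is known to sustain glucose uptake and glycolytic gene expression, partly through MYC and HIF1A.

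The libraries held 21222102 to 29366085 exon reads, of which 90.8% to 91.7% mapped uniquely. Mitochondrially encoded genes took 6.62% of the reads in resistant against 3.32% in parental HCC827 cells, 6.86% against 6.47% in PC9 and 4.67% against 5.56% in H1975. Leukocyte, endothelial and fibroblast markers summed to at most 12.4, 20.1 and 131 CPM in any library, the last mostly COL1A1. The 6 epithelial markers summed to 5208 CPM in resistant against 13332 CPM in parental HCC827 cells, 7529 against 8659.6 CPM in PC9 and 1732 against 2760.1 CPM in H1975; in resistant H1975 cells EPCAM and CDH1 were at 0.459 and 0.131 CPM. The 4 lung epithelium markers, NKX2-1 among them, summed to 153 CPM in resistant and 521 CPM in parental HCC827 cells but to 9.15 CPM or less in every PC9 and H1975 library. The part of these shifts in the results was not tested, and in bulk RNA fewer cells of a type and less RNA per cell cannot be told apart.

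No member passed the test across the 3 lines, and the lines differed from one another. In CPM (total exon reads scaled to library size with TMM factors), glycolytic enzymes from phosphoglucose isomerase to lactate dehydrogenase were mostly lower in resistant HCC827 cells, mostly close to the parental level in PC9, and mostly slightly higher in resistant H1975 cells. The glucose transporter SLC2A1, the glycolytic activator PFKFB3 and the hypoxia-induced BNIP3 and ADM were among 7 members higher in all 3 resistant libraries. Of all tested genes, 14.3% were higher throughout. The log2 ratios of SLC2A1 in H1975 (0.11) and ADM in PC9 (0.14) were small. A further 3 members were lower throughout, where 13.5% of all tested genes were. Large single-line differences were seen for ADM, EGLN3, HK2 and SLC2A1 in HCC827 and for NDRG1, ENO2 and BNIP3 in PC9.

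The quasi-likelihood test of edgeR took the libraries as paired by line, with each line as a replicate. By that test, 0 of the 33 members passed at an adjusted p of 0.05, where 0% of the 13541 genes passed. At an unadjusted p below that value there was 1 member, PFKFB3, among 502 genes. DESeq2 also called 0 members, against 0.428% of all genes, and gave 4 members an unadjusted p below 0.05, as it did for 924 of the 13541 genes. The p-values measure the spread between lines, since no line has a second library of either state, and values within a line have no test.

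By direction alone, 7 members were higher in all 3 resistant libraries (SLC2A1, HK1, PFKM, PFKFB3, ADM, BNIP3 and KDM3A), which is 7 of 33 where 14.3% of all tested genes were. The other direction held 3 members (SLC2A3, ALDOC and PKM), where 13.5% of all tested genes were lower throughout. PFKM and KDM3A change side in HCC827 when libraries are scaled by size alone or by TPM, which leaves 5 members higher in all lines. In 0 members did the levels of the 3 resistant and the 3 parental libraries fail to overlap, while 2.23% of all tested genes did not overlap.

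**Figure D1:**
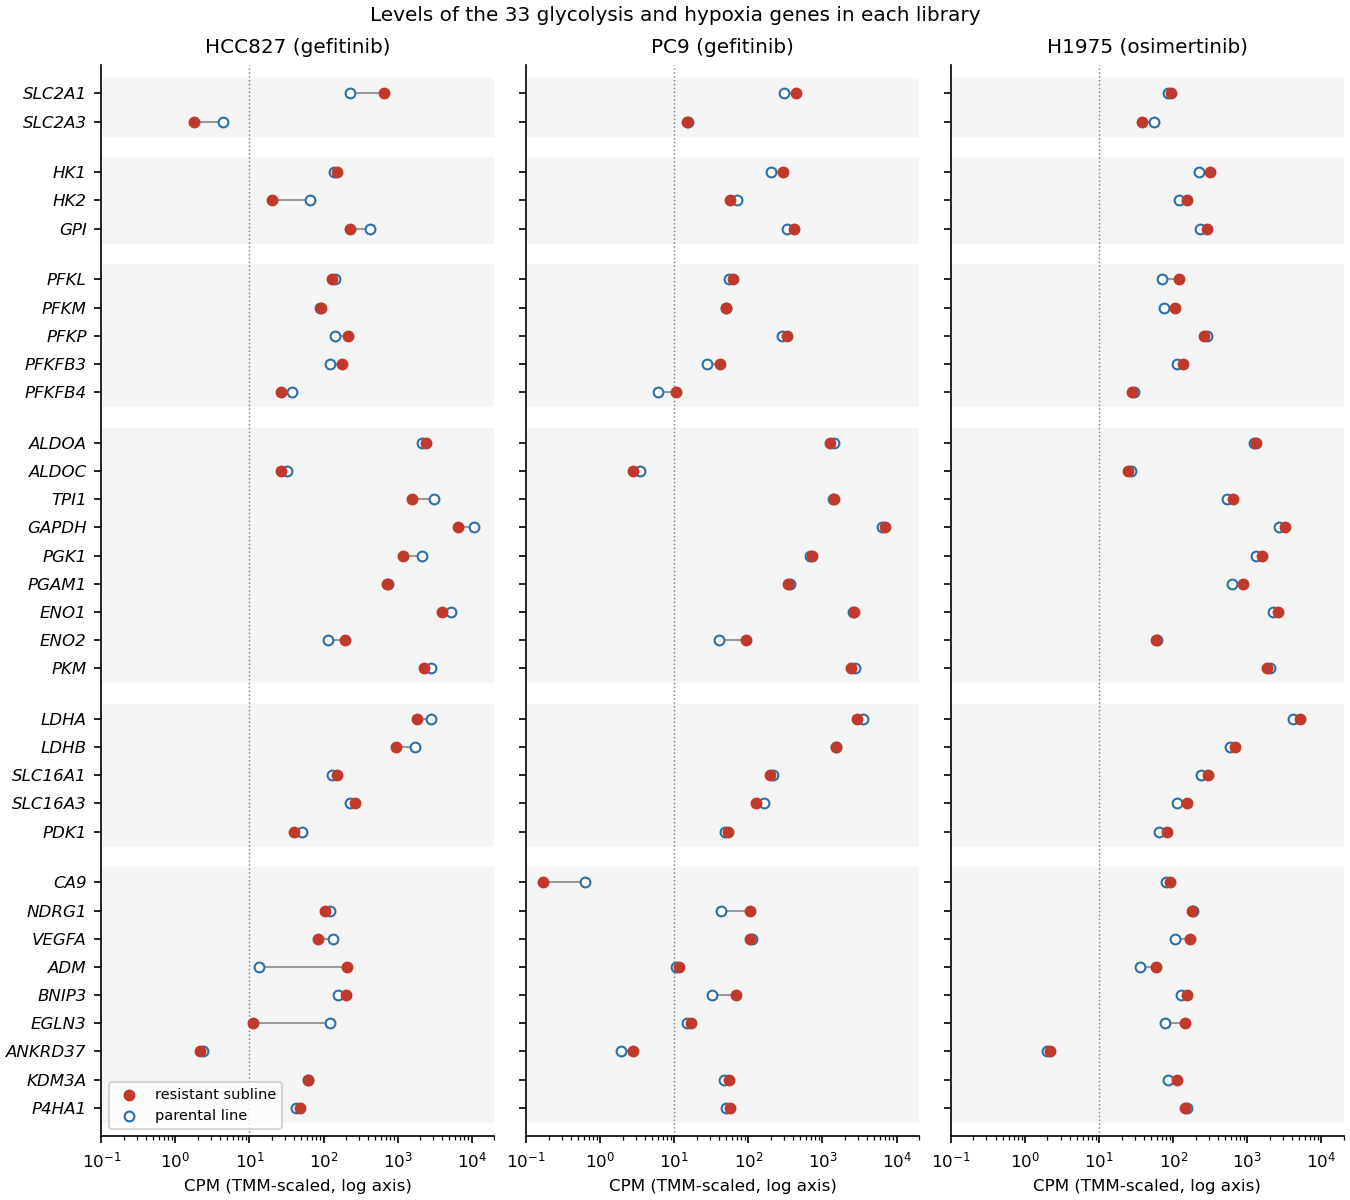
Level of each of the 33 members in each library, in TMM-scaled CPM on a log axis, with 1 panel per line, filled red points for the resistant subline, open blue points for the parental line and a grey line joining the pair; the dotted line marks 10 CPM, genes run in order of role, and CA9 in HCC827 is absent because both libraries held 0 reads. The widest pairs are ADM (207 against 13.3 CPM) and EGLN3 (11.0 against 123 CPM) in HCC827.

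Differences of 2-fold or more within a line were counted among members that reached 10 CPM in either library, on log2 ratios with 1 CPM added. In HCC827, 2 of 30 members were at least 2-fold higher in resistant cells (SLC2A1 and ADM), where 10.5% of all genes were. A further 2 were at least 2-fold lower (HK2 and EGLN3), where 7.66% of all genes were; GPI and TPI1, at −0.93 and −0.95, lay just inside that limit and pass it with library size alone or with TPM. In PC9, 3 of 30 members were at least 2-fold higher (ENO2, NDRG1 and BNIP3), where 2.41% of all genes were, and 0 were 2-fold lower, where 1.7% were. BNIP3 lay at the limit, with a log2 ratio of 1.01, 0.97 from TPM and 0.94 with 5 CPM added. In H1975, 0 of 32 members were 2-fold higher or lower, where 1.75% and 3.22% of all genes were. The median of the members' log2 ratios was −0.19 for HCC827, 0.13 for PC9 and 0.27 for H1975, beside −0.01, −0.02 and 0.05 for all genes counted. Above 0 were 13 of 30 members in HCC827 (43.3%, beside 49.3% of all genes), 20 of 30 in PC9 (66.7%, beside 48.0%) and 24 of 32 in H1975 (75.0%, beside 55.7%).

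**Figure D2:**
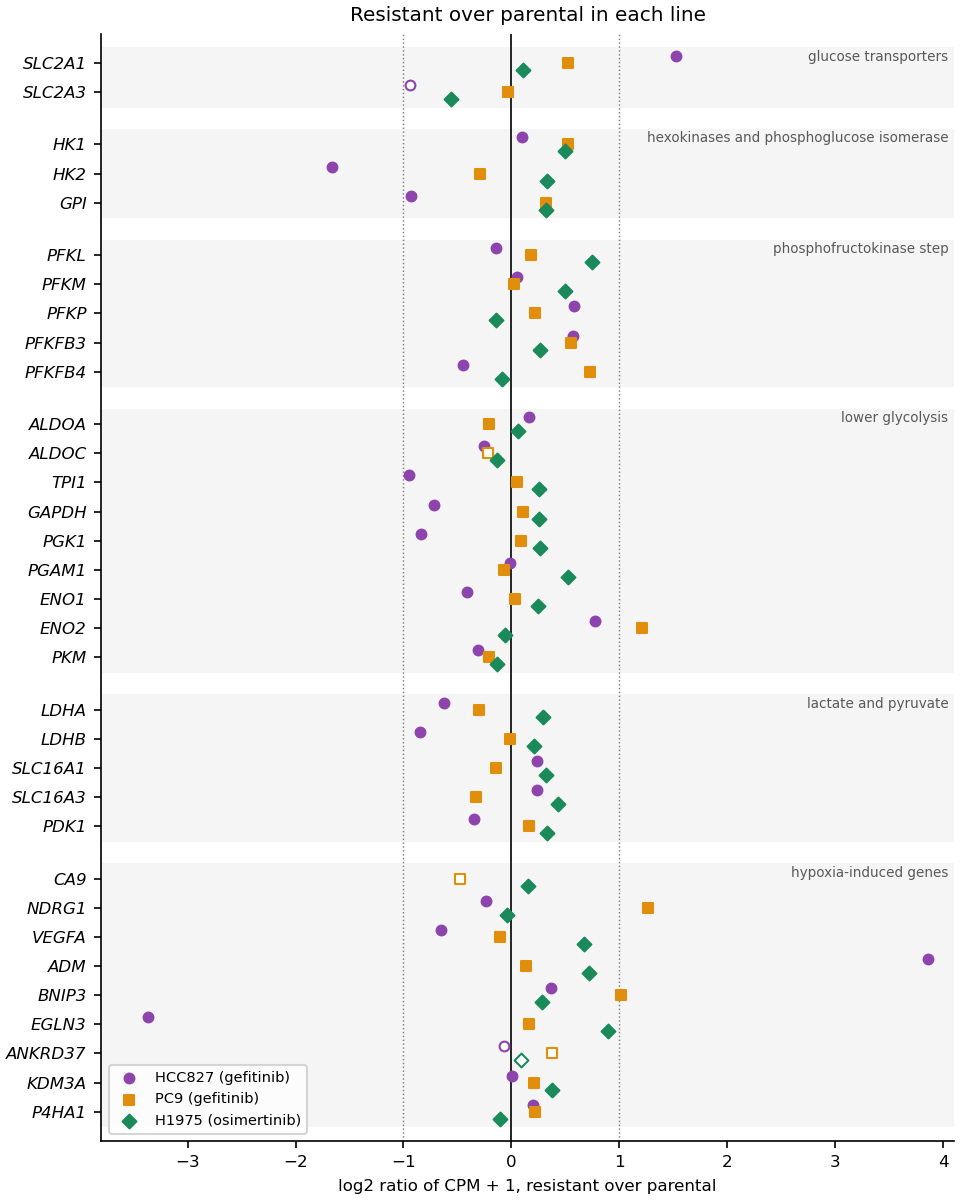
Log2 ratio of CPM + 1, resistant over parental, for each member in HCC827 (circles), PC9 (squares) and H1975 (diamonds), grouped by role; open symbols have less than 10 CPM in both libraries, dotted lines mark 2-fold, and CA9 in HCC827 is not drawn. The circles of lower glycolysis lie mainly left of 0 and the diamonds mainly right of it, with medians of −0.31 in HCC827 and 0.25 in H1975.

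HIF binds DNA at the core ACGTG or GCGTG, so the start sites of 6 of the 7 members that differed at least 2-fold in a line are shown (that of NDRG1 is not shown here), as RefSeq gives them on GRCh38.p14: 250 bases before to 50 after the first listed start, 5′ to 3′ along the gene. The windows are chr1:42958819-42959118, minus strand for SLC2A1; chr2:74833877-74834176, plus strand for HK2; chr12:6914330-6914629, plus strand for ENO2; chr11:10304823-10305122, plus strand for ADM; chr10:131981874-131982173, minus strand for BNIP3; and chr14:33951025-33951324, minus strand for EGLN3. Capitals mark ACGTG or GCGTG, or their reverse complements CACGT and CACGC.
SLC2A1: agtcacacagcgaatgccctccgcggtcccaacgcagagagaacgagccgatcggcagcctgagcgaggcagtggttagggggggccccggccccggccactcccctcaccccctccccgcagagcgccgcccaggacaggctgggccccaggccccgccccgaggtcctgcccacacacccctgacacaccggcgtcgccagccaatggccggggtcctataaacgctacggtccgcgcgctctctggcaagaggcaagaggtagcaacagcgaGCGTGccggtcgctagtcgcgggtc
HK2: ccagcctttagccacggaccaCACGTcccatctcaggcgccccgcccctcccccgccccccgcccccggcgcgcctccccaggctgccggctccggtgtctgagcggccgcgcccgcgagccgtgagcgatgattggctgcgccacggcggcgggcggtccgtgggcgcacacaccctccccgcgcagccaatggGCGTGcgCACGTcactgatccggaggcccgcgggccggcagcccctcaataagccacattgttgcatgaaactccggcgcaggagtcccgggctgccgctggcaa
ENO2: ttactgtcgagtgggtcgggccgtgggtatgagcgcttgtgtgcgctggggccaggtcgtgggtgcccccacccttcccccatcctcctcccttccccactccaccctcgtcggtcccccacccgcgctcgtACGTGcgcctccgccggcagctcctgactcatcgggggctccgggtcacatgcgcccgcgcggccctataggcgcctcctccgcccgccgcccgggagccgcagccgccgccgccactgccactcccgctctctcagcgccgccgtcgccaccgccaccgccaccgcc
ADM: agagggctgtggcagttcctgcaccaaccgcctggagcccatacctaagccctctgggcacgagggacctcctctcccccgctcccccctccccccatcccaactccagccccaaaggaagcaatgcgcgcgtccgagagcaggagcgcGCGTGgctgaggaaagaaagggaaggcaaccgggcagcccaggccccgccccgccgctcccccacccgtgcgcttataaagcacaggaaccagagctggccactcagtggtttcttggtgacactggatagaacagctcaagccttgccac
BNIP3: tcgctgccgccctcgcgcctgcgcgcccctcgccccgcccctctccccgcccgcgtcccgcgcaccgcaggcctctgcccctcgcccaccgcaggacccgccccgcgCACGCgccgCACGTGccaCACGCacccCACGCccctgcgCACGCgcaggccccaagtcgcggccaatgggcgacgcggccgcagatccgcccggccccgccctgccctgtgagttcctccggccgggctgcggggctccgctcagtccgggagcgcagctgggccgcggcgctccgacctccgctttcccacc
EGLN3: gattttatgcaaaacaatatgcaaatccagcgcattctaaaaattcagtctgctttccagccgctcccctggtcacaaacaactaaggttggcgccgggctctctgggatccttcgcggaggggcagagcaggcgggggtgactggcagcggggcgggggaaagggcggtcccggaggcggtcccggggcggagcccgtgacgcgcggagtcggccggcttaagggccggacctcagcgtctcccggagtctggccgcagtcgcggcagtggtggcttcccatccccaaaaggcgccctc
SLC2A1, ENO2 and ADM each hold 1 match, HK2 holds 3 and BNIP3 holds 5, of which 1 lies in CACGTG, the palindrome that MYC and MAX also bind. EGLN3 holds 0, which says only that these letters are not in this window. Of the 29 members in the promoter table, 22 (75.9%) hold a match at the first start, against 48.4% of the first starts of 27305 genes. The share was 6 of 7 among the hypoxia-induced members and 16 of 22 among the others. Several members are textbook HIF targets and the 6 printed windows hold 65.0% to 80.7% G and C, so the share is a description, and a match is not a site shown to be bound.

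SLC2A1 and SLC2A3 (GLUT1 and GLUT3) carry glucose across the plasma membrane. SLC2A1 (ENSG00000117394, chromosome 1, 42925375 to 42959176 on hg38) had 654, 440.0 and 92.4 CPM in resistant HCC827, PC9 and H1975 cells, against 227, 305 and 85.6 CPM in the parental cells. Resistant cells were the higher of the pair in each line, but the groups overlap, because parental PC9 cells held more than resistant H1975 cells. The log2 ratios were 1.53, 0.53 and 0.11. The fitted log2 fold change over the lines was 0.72 ± 0.33 (SE of the fit, edgeR adjusted p = 0.903). Without the HCC827 pair the fitted value was 0.31. SLC2A3, a high-affinity transporter, had 1.79, 15.01 and 37.3 CPM in resistant HCC827, PC9 and H1975 cells, against 4.36, 15.4 and 55.3 CPM in the parental cells. It was lower in each resistant library, by little in PC9, with a fitted value of −0.61 ± 0.31 (edgeR adjusted p = 0.903). That value was −0.31 without the HCC827 pair and −0.92 without the PC9 pair.

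Hexokinases trap glucose as glucose 6-phosphate, HK1 as the widely expressed form and HK2 as the form common in tumours. HK1 had 150.4, 294 and 310.2 CPM in resistant HCC827, PC9 and H1975 cells, against 140.0, 205 and 219 CPM in the parental cells. HK2 (ENSG00000159399, chromosome 2, 74833981 to 74893359) had 19.9, 56.5 and 152 CPM in resistant HCC827, PC9 and H1975 cells, against 65.2, 69.4 and 121 CPM in the parental cells. So the 2 genes lay on opposite sides in HCC827 and PC9, with HK1 log2 ratios of 0.10, 0.52 and 0.50 and HK2 log2 ratios of −1.66, −0.29 and 0.33, and were both higher in resistant H1975 cells. The fitted value of HK1 was 0.38 ± 0.19 (n = 3 lines; edgeR adjusted p = 0.903). GPI, which turns glucose 6-phosphate into fructose 6-phosphate, had log2 ratios of −0.93, 0.32 and 0.32; 77.3% of its reads mapped uniquely.

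From TPM, which corrects for exon length, HK2 made up 10.1% of the HK1 and HK2 transcripts in resistant against 28.2% in parental HCC827 cells. It made up 13.9% against 22.3% in PC9 and 29.3% against 31.7% in H1975. All 3 resistant sublines had the smaller share, with a mean difference of −9.66 ± 7.93 percentage points (SD, n = 3), and the exact two-sided sign-flip permutation test gave p = 0.25, the smallest that 3 pairs allow (0.667 adjusted over 8 shares). Among glucose transporters, SLC2A3 made up 0.276% in resistant against 1.91% in parental HCC827 cells, 3.33% against 4.84% in PC9 and 28.9% against 39.5% in H1975. That share was also lower in 3 of 3 lines, with the same exact permutation p of 0.25. ALDOC, the third share with 1 direction, did not keep it: with uniquely mapping reads it made up 13.3% of aldolase transcripts in resistant against 12.7% in parental H1975 cells. LDHA made up 51.4% of the lactate dehydrogenase transcripts in resistant against 47.5% in parental HCC827 cells, 51.5% against 56.4% in PC9 and 80.4% against 79.5% in H1975. These levels depend on shared reads: with uniquely mapping reads they were 81.9% in resistant against 77.9% in parental HCC827 cells, 82.9% against 85.7% in PC9 and 94.8% against 94.2% in H1975.

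**Figure D3:**
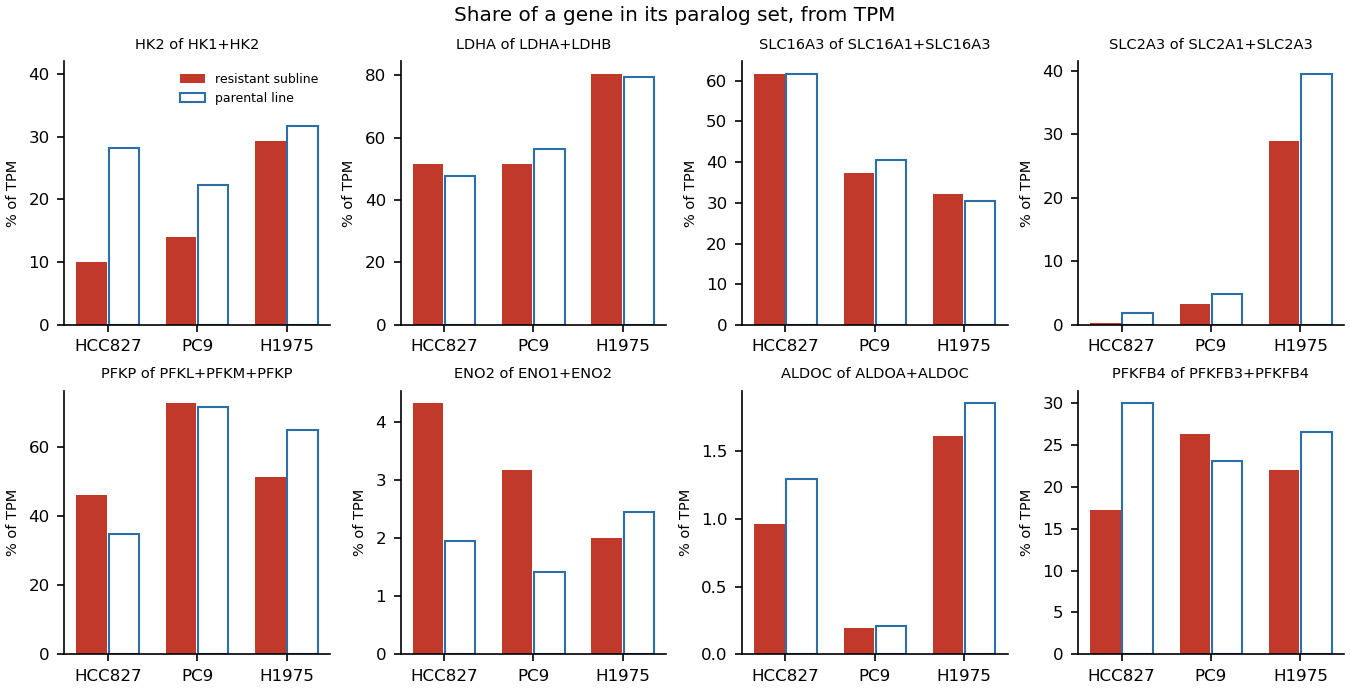
Share of 1 gene in the summed TPM of its paralog set, in percent, with a filled red bar for the resistant subline left of an open blue bar for the parental line, in each of the 3 lines (1 library per bar, no error bars). HK2, SLC2A3 and ALDOC have the lower bar in the resistant subline of all 3 lines, while the other 5 shares are mixed.

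Phosphofructokinase commits sugar to glycolysis, and the PFKFB enzymes make its activator, fructose 2,6-bisphosphate. PFKFB3 (ENSG00000170525, chromosome 10, 6144934 to 6254644), the form with the highest kinase activity, had 180.2, 41.4 and 136 CPM in resistant HCC827, PC9 and H1975 cells, against 121, 27.9 and 113 CPM in the parental cells. Its log2 ratios were 0.58, 0.56 and 0.26, so each resistant library was the higher of its pair, and its fitted value was 0.47 ± 0.17 (edgeR adjusted p = 0.903). Levels still differed more between lines than between states, and the groups overlap. PFKFB4, its paralog, had log2 ratios of −0.45, 0.73 and −0.09, with 10.7 CPM in resistant against 6.02 CPM in parental PC9 cells.

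The 3 phosphofructokinase subunits differed by line. PFKP, the platelet form, was at 215 CPM in resistant against 144 CPM in parental HCC827 cells, with log2 ratios of 0.58, 0.22 and −0.15. PFKL, the liver form, had log2 ratios of −0.14, 0.18 and 0.75, the highest from 119 CPM in resistant against 70.6 CPM in parental H1975 cells. PFKM, the muscle form, had 0.05, 0.03 and 0.50, with a fitted value of 0.19 ± 0.18 (edgeR adjusted p = 0.907), or 0.05 without the H1975 pair. As a share of the 3 subunits by TPM, PFKP was at 46.0% in resistant against 34.8% in parental HCC827 cells and 51.4% against 65.0% in H1975, so its balance with the other subunits went opposite ways in these lines. In PC9 it was at 72.7% against 71.5%, and all 5 genes of the step were above 0 in that line.

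Lower glycolysis runs from aldolase to pyruvate kinase and yields the pathway's ATP. In HCC827, 7 of its 9 genes were lower in resistant cells, and 6 of 9 were higher in resistant H1975 cells (5 of 9 with uniquely mapping reads, library size alone or TPM, where ALDOA is lower). GAPDH, the glyceraldehyde 3-phosphate dehydrogenase often used as a loading control, had 6468, 6898 and 3221 CPM in resistant HCC827, PC9 and H1975 cells, against 10609.8, 6382 and 2692 CPM in the parental cells. PGK1, the first ATP-yielding kinase, had 1181, 729 and 1579 CPM in resistant HCC827, PC9 and H1975 cells, against 2105, 685 and 1312 CPM in the parental cells. These genes and TPI1, the triose phosphate isomerase, lay close together within a line, with log2 ratios of −0.71, 0.11 and 0.26 for GAPDH, −0.83, 0.09 and 0.27 for PGK1 and −0.95, 0.05 and 0.25 for TPI1.

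ENO1, the main enolase, had log2 ratios of −0.41, 0.04 and 0.25. ENO2 (ENSG00000111674, chromosome 12, 6913745 to 6923698), the neuronal enolase, differed from it, with 198, 94.2 and 58.3 CPM in resistant HCC827, PC9 and H1975 cells, against 115, 40.2 and 60.7 CPM in the parental cells. Its log2 ratios were 0.78, 1.21 and −0.06, so the gefitinib-selected lines and H1975 lie on opposite sides. ENO2 made up 4.33% of the enolase transcripts in resistant against 1.95% in parental HCC827 cells, 3.18% against 1.41% in PC9 and 2.002% against 2.46% in H1975. PKM, the pyruvate kinase, was lower in each resistant library, with 2247, 2414 and 1868 CPM in resistant HCC827, PC9 and H1975 cells, against 2784, 2778 and 2046 CPM in the parental cells and a fitted value of −0.21 ± 0.20 (edgeR adjusted p = 0.907).

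Aldolase and phosphoglycerate mutase share reads with near-identical copies and are less certain: 8.18% of the ALDOA reads, 68.5% of the ALDOC reads and 47.1% of the PGAM1 reads mapped uniquely. ALDOA, the main aldolase here, had log2 ratios of 0.17, −0.20 and 0.06, and 0.27, −0.33 and −0.25 with uniquely mapping reads, so its direction in H1975 turned. ALDOC, the brain form, had −0.25, −0.22 and −0.14, with a fitted value of −0.23 ± 0.22 (edgeR adjusted p = 0.907). Its PC9 value came from low levels, 2.79 CPM in resistant against 3.42 CPM in parental cells. The counting interval of the ALDOC ratio included no change in PC9 (0.576 to 1.16) and in H1975 (0.814 to 1.01). PGAM1, which moves the phosphate of phosphoglycerate, had −0.02, −0.07 and 0.53.

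Added up by TPM, the 17 genes from HK1 to lactate dehydrogenase took 1.96% of all transcripts in resistant against 3.01% in parental HCC827 cells. They took 1.96% against 2.001% in PC9 and 1.93% against 1.76% in H1975. The 3 resistant libraries thus spanned 1.93% to 1.96%, while the 3 parental libraries spanned 1.76% to 3.01%, the upper end from HCC827 alone. The difference in span was not tested. These sums include ALDOA, LDHB and PGAM1, for which most reads did not map uniquely. GAPDH supplied 35.3% of the sum in resistant against 39.8% in parental HCC827 cells, 39.8% against 36.6% in PC9 and 22.8% against 22.3% in H1975.

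Lactate dehydrogenase interconverts pyruvate and lactate, and the monocarboxylate carriers SLC16A1 (MCT1) and SLC16A3 (MCT4) move lactate across the plasma membrane. LDHA, the subunit that favours lactate formation, had 1823, 2892 and 5086 CPM in resistant HCC827, PC9 and H1975 cells, against 2808, 3568 and 4157 CPM in the parental cells. Its log2 ratios, −0.62, −0.30 and 0.29, put both gefitinib-selected lines below 0 and H1975 above it. LDHB, the other subunit, had log2 ratios of −0.84, −0.02 and 0.21, from counts of which 23.3% mapped uniquely. SLC16A1 had 0.24, −0.14 and 0.32 and SLC16A3 had 0.23, −0.33 and 0.43, so the carriers were on the same side within every line, lower in resistant PC9 cells and higher in the resistant cells of the other two. PDK1, the kinase that keeps pyruvate out of the mitochondrion by inhibiting pyruvate dehydrogenase, had −0.34, 0.16 and 0.33. In H1975 all 5 genes of this group were above 0, between 0.21 and 0.43.

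Among the hypoxia-induced genes, ADM (ENSG00000148926, chromosome 11, 10304680 to 10307397), which encodes the vasodilator peptide adrenomedullin, had 207, 11.5 and 58.7 CPM in resistant HCC827, PC9 and H1975 cells, against 13.3, 10.4 and 35.2 CPM in the parental cells. The HCC827 pair differed 15.5-fold by CPM (95% Clopper-Pearson interval 14.0 to 17.3, counting error only), while the PC9 pair differed by less than its counting error (ratio 1.11, interval 0.926 to 1.33). The fitted value over the lines was 1.51 ± 0.86 (edgeR adjusted p = 0.903), with 0.45 without the HCC827 pair and 2.33 without the PC9 pair. EGLN3 (ENSG00000129521, chromosome 14, 33924231 to 34462774), the HIF prolyl hydroxylase that HIF itself induces, went the other way in the same line. It had 11.0, 16.6 and 143 CPM in resistant HCC827, PC9 and H1975 cells, against 123, 14.8 and 76.5 CPM in the parental cells. In HCC827 the level was 0.0893 of parental (interval 0.0790 to 0.101), and in H1975 it was 1.87 times parental (1.77 to 1.98).

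BNIP3 (ENSG00000176171, chromosome 10, 131966455 to 131982013), a mitochondrial receptor for mitophagy, had 203, 66.9 and 152 CPM in resistant HCC827, PC9 and H1975 cells, against 157, 32.6 and 125 CPM in the parental cells. Resistant cells held more of it in every line, with log2 ratios of 0.37, 1.01 and 0.28. The fitted value was 0.56 ± 0.22 (SE of the fit, edgeR adjusted p = 0.903), or 0.32 without the PC9 pair. NDRG1, a stress-responsive differentiation gene, had 103, 105 and 180.0 CPM in resistant HCC827, PC9 and H1975 cells, against 121, 42.9 and 185 CPM in the parental cells. The PC9 pair stood furthest apart, with log2 ratios of −0.23, 1.27 and −0.04; parental PC9 cells held the least NDRG1 of the 6 libraries. VEGFA, the angiogenic growth factor, had 84.1, 104 and 169 CPM in resistant HCC827, PC9 and H1975 cells, against 132, 111 and 105 CPM in the parental cells. Its log2 ratios were −0.65, −0.10 and 0.68, on opposite sides in HCC827 and H1975.

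CA9, a cell-surface carbonic anhydrase and a classic marker of HIF1A activity, had 0 reads in both HCC827 libraries, which allows up to 0.112 CPM in resistant and 0.109 CPM in parental cells. PC9 held 4 reads in resistant and 13 in parental cells. H1975 alone carried it at 90.2 CPM in resistant and 80.9 CPM in parental cells. CA9 is thus nearly silent in the lines where SLC2A1 was highest, in both states. ANKRD37, an ankyrin-repeat gene induced by HIF1A, was at 2.13 to 2.79 CPM in resistant and 1.93 to 2.33 CPM in parental libraries. KDM3A, a histone H3 lysine 9 demethylase, had log2 ratios of 0.01, 0.21 and 0.38 and a fitted value of 0.20 ± 0.17 (edgeR adjusted p = 0.903), or 0.13 without the H1975 pair. P4HA1, a collagen prolyl hydroxylase subunit, had 0.20, 0.22 and −0.10.

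The hypoxia-induced genes differed from one another within a line. In HCC827 ADM was higher while EGLN3 and VEGFA were lower. In PC9 NDRG1 and BNIP3 were higher while ADM, EGLN3 and VEGFA lay within 0.16 of 0. Of those with at least 10 CPM, 4 of 7 were above 0 in HCC827, 6 of 7 in PC9 and 6 of 8 in H1975. The shares of all genes above 0 were 49.3%, 48.0% and 55.7%. In H1975 the larger values were EGLN3 at 0.90, ADM at 0.72 and VEGFA at 0.68, with NDRG1 and P4HA1 just below 0. The test of the gefitinib-selected change minus the H1975 change called 0 members and 0% of all genes with edgeR (434 genes had an unadjusted p under 0.05), with 1 residual degree of freedom.

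Intron reads, which come largely from unspliced RNA, were a second readout of the same libraries for members with at least 20 such reads in both. They had the same sign as exon reads for 24 of 28 members in HCC827, 19 of 28 in PC9 and 23 of 30 in H1975. The share over all genes was not counted, so these counts cannot be called particular to the members. Signs were taken against 0, although the median intron ratio of all genes with as many reads was −0.37 in PC9. EGLN3 in HCC827 had 39 intron reads in resistant and 319 in parental cells, a log2 ratio of −2.99 beside −3.37 from exons. HK2 in HCC827 had −1.80 beside −1.66, SLC2A1 in HCC827 had 1.27 beside 1.53, and NDRG1 in PC9 had 1.42 beside 1.27. The larger single-line differences were therefore present in intron reads too, except for ADM, which had too few.

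Some members differed between the readouts. SLC2A1 in H1975 had 138 intron reads in resistant and 39 in parental cells, a log2 ratio of 1.45 (interval 0.93 to 2.005), beside 0.11 from exons. PFKP in HCC827 had 1.44 beside 0.58. SLC16A3 in HCC827 had −0.68 (−0.81 to −0.56) beside 0.23. The members' median intron ratio stood at −0.29 for HCC827, −0.09 for PC9 and 0.46 for H1975, beside −0.10, −0.37 and 0.12 for all genes with as many intron reads.

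**Figure D4:**
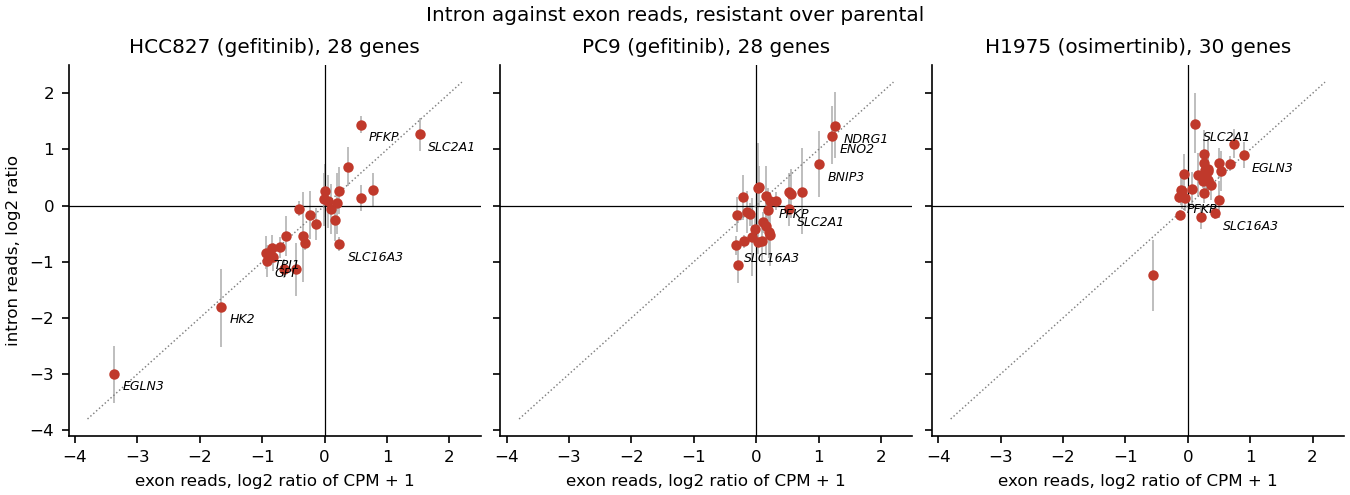
Log2 ratio of intron reads against log2 ratio of exon reads (CPM + 1), resistant over parental, for members with at least 20 intron reads in both libraries of a line; bars are 95% Clopper-Pearson intervals (counting error only) and the dotted line marks equal ratios. EGLN3 and HK2 in HCC827 lie near the line at the lower left, while SLC2A1 in H1975 lies well above it.

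Genes within 1 Mb of a member, other members left out, give the local level of change. Around GAPDH, TPI1 and ENO2 on chromosome 12, which share their neighbours, the median log2 ratio of 31 neighbours was −0.43 in HCC827, with 22 of 31 below 0, and 0.12 in PC9; in H1975 it was 0.35 over 26 neighbours. GAPDH and TPI1 lay on the side of their neighbours in all 3 lines. ENO2 lay on the other side in HCC827 and, by less than its counting error, in H1975. Around HK2 in HCC827 the median was −0.64, with 21 of 24 neighbours below 0, beside −1.66 for HK2. Around EGLN3 it was −0.23 over 8 neighbours beside −3.37, and around ADM it was 0.03 over 10 neighbours beside 3.86. Copy number was not measured, and its part in these values was not tested.

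Of the 11 genes of the HIF pathway, 0 passed the edgeR test, and 3 (ARNT, EGLN2 and SIAH2) were higher in all 3 resistant libraries. For this and the lists that follow, the shares of all tested genes are the 14.3% higher and 13.5% lower throughout. HIF1A, the oxygen-regulated subunit, had 712, 268 and 661 CPM in resistant HCC827, PC9 and H1975 cells, against 566, 231 and 882 CPM in the parental cells. EPAS1, which encodes HIF2A, had log2 ratios of 0.50, −0.15 and −0.14, and ARNT, their partner, had 0.10, 0.02 and 0.11. The widest of these was the 0.50 of EPAS1 in HCC827. VHL, the ubiquitin ligase subunit that binds hydroxylated HIF, had −0.14, −0.42 and 0.00; the hydroxylases had 0.23, −0.07 and −0.15 for EGLN1, 0.16, 0.40 and 0.18 for EGLN2 (5.04% of reads unique) and 0.13, −0.09 and 0.12 for HIF1AN. SIAH2 is a ligase that degrades prolyl hydroxylases. It had 36.3, 34.2 and 29.8 CPM in resistant HCC827, PC9 and H1975 cells, against 24.6, 24.7 and 23.4 CPM in the parental cells. Its groups do not overlap, which held for 1 of the 11 genes and for 2.23% of all tested genes. Its edgeR adjusted p was 0.903. CITED2, which competes with HIF for its coactivator, had 2.61, 0.39 and −0.10, and the ARNT paralog ARNT2 had 1.98, 0.81 and −0.26. ARNT2 was at low levels in HCC827, with 4.67 CPM in resistant against 0.436 CPM in parental cells. In H1975 it was also low, at 6.56 against 8.05 CPM. HIF is regulated chiefly at the protein level, which was not measured.

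Of 29 further hypoxia-induced genes tested, 0 passed the edgeR test; 8 were higher and 1 was lower in all 3 resistant libraries. LOXL2, a lysyl oxidase, had log2 ratios of 3.01, 0.38 and 0.33, and STC2, a secreted glycoprotein, had 2.75, 0.26 and 0.65. As with ADM, the HCC827 value was far above the others for both. In HCC827, 9 of 26 were at least 2-fold higher and 4 were at least 2-fold lower, beside the 10.5% and 7.66% of all genes given above.

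Of 15 further glycolysis and glucose genes tested, 0 passed, with 3 higher and 3 lower in all lines. The transporter SLC2A6 had log2 ratios of 0.85, 0.58 and 1.57. Its PC9 value came from low levels, 1.21 CPM in resistant against 0.482 CPM in parental cells. FBP1, the gluconeogenic phosphatase that opposes phosphofructokinase, had −2.76, −0.42 and −2.18. The HCC827 value of FBP1 also came from low levels, 0.0748 CPM in resistant against 6.29 CPM in parental cells. PFKFB2 had −0.19, −0.21 and −0.99. Neither list of outlets for glycolytic carbon had a gene that passed: of 7 pentose phosphate genes, 0 were higher and 1 was lower in all lines, and of 12 genes of pyruvate entry into mitochondria, 1 was higher and 2 were lower. In the pentose phosphate pathway, the isomerase RPIA had log2 ratios of −1.05, −0.30 and 0.81 and the epimerase RPE had −0.92, −0.07 and 0.38. PDHB and DLD, subunits of pyruvate dehydrogenase, had −0.65, −0.17 and −0.27 and −0.79, −0.01 and −0.49, and PDK4 had 0.38, −0.60 and −1.32 at low levels.

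Of 12 regulators of glycolytic genes, 0 passed, with 4 higher and 1 lower in all 3 resistant libraries. MYC, which activates many glycolytic genes, had 393, 137 and 487 CPM in resistant HCC827, PC9 and H1975 cells, against 247, 178 and 274 CPM in the parental cells. Its partner MAX had log2 ratios of 0.54, 0.22 and 0.58, and the glucose sensor MLXIP had 0.31, 0.41 and 0.30. MYC was thus higher in resistant HCC827 and H1975 cells and lower in resistant PC9 cells. Its part in the levels of the members was not tested. The median fitted log2 fold change over the lines was 0.08 for the 33 members and 0.00 for all tested genes. It was 0.08 for the HIF pathway, 0.34 for the further hypoxia-induced genes, −0.20 for the further glycolysis genes, −0.14 for the pentose phosphate genes, −0.12 for pyruvate entry and 0.17 for the regulators.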

How the data were processed

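RNA from 6 libraries was analysed: 3 resistant and 3 parental, grouped by the labels. Per the labels' protocols, libraries were made with a stranded mRNA kit. Trimmomatic, Bowtie2 and the build hg38 appear in the submitters' processing notes, without roles or versions; how reads were counted, on which annotation and strand, and how multiply mapping reads were treated is not given in the sources read. Per the file headers, the authors deposited whole-number counts per gene (total exon, unique exon and intron reads) without normalization, and TPM, which equals exon reads over exon length to within 5e-07. The deposited table of the whole series was not used here.

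Total exon reads, after filterByExpr with a minimum count of 10 and a minimum total of 15, were fitted with the quasi-likelihood test of edgeR 4.0.16 (R 4.3.3), with TMM scaling and the cell line as a block, since each subline came from the parental line of its pair. This leaves 2 residual degrees of freedom (1 for the difference between drugs). Tests were two-sided, Benjamini-Hochberg adjusted over all genes, with a threshold of 0.05; standard errors come from the fold change and its F statistic. Within a line, 1 CPM was added to both CPM values, and genes with at least 10 CPM in 1 library were counted at 2-fold. Paralog shares used TPM and an exact sign-flip permutation test. Where a gene had 0 reads, up to 3 were allowed for. Intervals and floors cover counting error only.

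Every member was to be named, with fitted values for those on the same side in all lines. Of 6 further pathway lists, 8 set genes and up to 3 genes with the largest mean ratio per list were named; some genes that this rule took are left out here. Members and lists were chosen with earlier results of these data known. Alternatives were relative log expression factors, library size alone, other filters, other amounts added to CPM, unique reads, TPM, DESeq2 1.42.0, limma-voom (limma 3.58.1), no block and leaving out each line. The fits were tested on simulated data. Promoter sequences are RefSeq's (GRCh38.p14).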

Additional observations from a re-analysis of the deposited data

Results flagged for a closer look

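For 8 members both gefitinib-selected lines lay on one side of their parental lines and H1975 on the other. The share of all tested genes with this split was not counted, so the 8 cannot be called particular to the members. The difference itself, the gefitinib-selected minus the osimertinib-selected log2 change, was tested with edgeR, and none of the 8 passed (adjusted p = 1.00 for each). It was 1.06 ± 0.45 for the neuronal enolase ENO2 (SE), 0.55 ± 0.45 for PFKP and 0.31 ± 0.40 for P4HA1, the 3 that were higher in the resistant cells of HCC827 and PC9. It was −1.34 ± 0.72 for HK2, −1.06 ± 0.47 for VEGFA, −0.75 ± 0.56 for LDHA, −0.64 ± 0.60 for LDHB and −0.57 ± 0.46 for PGAM1, which were higher in the resistant cells of H1975. The PC9 values of LDHB and PGAM1 were small, with log2 ratios of −0.02 and −0.07, and LDHB in PC9 was at 0.01 with uniquely mapping reads, which takes it out of the 8. Also small were PGAM1 in HCC827 (−0.02) and ENO2 in H1975 (−0.06). The counting interval included no change for LDHB in PC9, PGAM1 in HCC827 and ENO2 in H1975. In intron reads the H1975 log2 ratio was on the other side of 0 from exon reads for ENO2 (0.56), PFKP (0.16), P4HA1 (0.29) and LDHB (−0.20). The same held for P4HA1 in PC9 (−0.53) and PGAM1 in HCC827 (0.11). Drug, EGFR mutation and cell line cannot be told apart in this contrast. Groups of 3 libraries are too small for a check of single outlying samples.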

How the results depend on the processing

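With DESeq2, 58 genes were called for resistant against parental cells and 72 for the difference between drugs, against 0 each with edgeR; 0 of these were members. Under library size alone the median log2 ratio of the members in HCC827 was −0.29, where all genes shifted to −0.11, and 4 members were at least 2-fold lower in resistant cells with that scaling as with TPM. The mean difference in the LDHA share was −0.06 percentage points with all reads and 0.55 with uniquely mapping reads, both far within its spread. Of 42 alternative values for members that differed at least 2-fold within a line, 40 stayed past 2-fold. The fitted values of the 10 members on the same side in all lines kept their direction in 110 of 110 alternatives. These members were picked for sharing a side in all lines, so that count was largely set by the choice. In those alternatives 0 had an adjusted p under 0.05. Without the replicate block, that is without the cell line as the pair, 0 genes and 0 members were called. In that setting 47 genes had an unadjusted p under 0.05 in edgeR. Leaving out each line in turn gave 0 called members and 0 called genes. Without HCC827 the fitted value of ADM was 0.45, against 2.33 without PC9, and that of SLC2A1 was 0.31. Summed enzyme TPM ratios from uniquely mapping reads, an alternative chosen after seeing the data, had log2 values of −0.71, −0.02 and 0.14 in HCC827, PC9 and H1975, beside −0.62, −0.03 and 0.13 from all reads. With 1 library per line and state, within-line ratios have no replicate error, and counting intervals understate it.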
